A study of Mus musculus with 5 samples.

Results

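The genes described here encode enzymes and a chaperone that turn new collagen chains into cross-linked fibrils. They are the prolyl 4-hydroxylases P4ha1 and P4ha2, the lysyl hydroxylases Plod1 and Plod2, the chaperone Serpinh1, the procollagen proteinase Bmp1 and the lysyl oxidases Lox, Loxl1, Loxl2 and Loxl3. They were chosen by symbol, with earlier results of these data known, and are 10 of the 27998 genes listed in the count tables. Their levels were read in single-cell RNA sequencing of the temporomandibular joint (TMJ) disc, the fibrocartilage plate between the jaw condyle and the skull, and were set beside the level of Col1a1, the gene of a collagen I chain. The 5 libraries were made from wild-type C57BL/6 discs, 1 library per condition, from untreated mice at 4 ages, called newborn at 3 d, juvenile at 3 w, adult at 16 w and aged at 78 w here, and from injured discs. The injured discs came from mice at 7 weeks of age, 2 weeks after the anterior band of the right disc was damaged with a needle at 5 weeks. The 3 d suspension pooled pups of both sexes, the mice of the 3 later ages were males, and the number of animals pooled per library was not given in the sources used here. No uninjured library of 7 weeks exists among the 5, so the injured library was set beside 3 w and 16 w, and age and injury cannot be told apart in it. The labels call the injured mice wild type, whereas the study's description of the injury model names mice that carry Myh11-CreER and a tdTomato reporter.

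A collagen chain is modified in the endoplasmic reticulum before it is secreted. Prolyl 4-hydroxylases add the hydroxyl groups that keep the triple helix stable at body temperature, lysyl hydroxylases prepare lysines for sugars and cross-links, and the chaperone made by Serpinh1 (HSP47) binds the folded helix on its way to the Golgi. Outside the cell Bmp1 cuts the C-propeptide from procollagens I to III so that fibrils can form, and it also cuts the propeptide of lysyl oxidase. Lysyl oxidases then oxidise lysines and hydroxylysines of collagen and elastin, which starts the covalent cross-links that give a tissue its tensile strength. In fibrocartilage such as the TMJ disc, which carries load in tension and compression, these cross-links contribute to stiffness. The hydroxylases need oxygen and iron, and P4ha1, P4ha2, Plod2 and Lox are textbook targets of hypoxia-inducible factors.

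Promoter sequences were shown because P4ha1 and P4ha2 were both above their juvenile level in adult and aged stroma, and Serpinh1, lowest in juvenile stroma, is shown beside them. The RefSeq promoter table of build GRCm38.p6 held an entry for 4 of the 10 members, and none for Plod2 or Lox. The 250 bases before the start of P4ha1, P4ha2 and Serpinh1 are printed 5′ to 3′ on the gene's strand, with the core of the hypoxia response element (ACGTG, or CACGT on the other strand) in capitals.
P4ha1 at chr10:59323046-59323295, plus strand: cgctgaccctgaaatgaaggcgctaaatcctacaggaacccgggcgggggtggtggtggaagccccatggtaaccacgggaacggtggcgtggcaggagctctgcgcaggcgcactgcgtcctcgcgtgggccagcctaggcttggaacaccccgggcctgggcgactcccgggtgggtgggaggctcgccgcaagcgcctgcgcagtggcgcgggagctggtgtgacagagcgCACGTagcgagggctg
P4ha2 at chr11:54100674-54100923, plus strand: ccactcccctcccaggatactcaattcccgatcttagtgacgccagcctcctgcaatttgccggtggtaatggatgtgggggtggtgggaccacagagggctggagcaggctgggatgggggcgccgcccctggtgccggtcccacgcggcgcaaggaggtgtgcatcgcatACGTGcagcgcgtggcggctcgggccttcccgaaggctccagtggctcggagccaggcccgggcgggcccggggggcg
Serpinh1 at chr7:99353240-99353489, minus strand: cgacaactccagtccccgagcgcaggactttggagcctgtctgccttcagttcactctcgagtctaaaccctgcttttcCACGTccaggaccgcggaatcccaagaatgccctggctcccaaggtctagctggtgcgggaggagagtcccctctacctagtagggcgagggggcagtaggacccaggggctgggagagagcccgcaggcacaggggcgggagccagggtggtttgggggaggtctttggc
Each of these 3 windows held 1 match, the window of Plod1 held 0, and 16.6% of the 32851 promoter windows of the same length held a match on either strand. The CCAAT box (CCAAT, either strand) and the heat shock element (GAANNTTC, which reads the same on both strands) were in 0 of the 4 member windows and in 33.8% and 6.69% of all windows. The 4 genes lie on chromosome 10 from 59323296 to 59373304 (P4ha1), chromosome 11 from 54100095 to 54131665 (P4ha2), chromosome 7 from 99345376 to 99353239 (Serpinh1) and chromosome 4 from 147909753 to 147936767 (Plod1) in GENCODE M21 on GRCm38, and the printed P4ha2 window lies within an intron of a transcript that starts further upstream.

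The libraries held 31585993 to 125427849 unique molecular identifiers (UMIs, each counting 1 captured transcript) over 8467 to 15169 barcodes, and the injured library was the shallowest, with a median of 3299 UMIs per cell against 7721 to 12496 in the others. Between 19 and 39 cell barcodes were shared by any pair of libraries, at most 0.416% of the smaller one. Clusters were named by markers, and the names are to be read as "-like": 3 of the 11 clusters were stromal (fibroblast-like), with 6824 to 10270 cells per library, and others were endothelial, leukocyte, mural, synovial lining, cycling and erythroid. Levels are given as CPM, the summed UMIs of a gene in 1 class and library per 1000000 summed UMIs of all genes, and their intervals hold counting error alone. Since each condition had 1 library, there was no test, no SD between replicates and no p-value, so a difference below is a difference between libraries. A member was called higher or lower in a comparison where its CPM differed by 2-fold or more.

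The members took different courses over the 4 stages. None matched the size of the adult loss of Col1a1, which was known beforehand and which few genes could match. Of the 7835 genes with at least 10 CPM at 3 w or 16 w, 3.87% were lower by 2-fold or more at 16 w. In stromal cells Col1a1 was at 9789 CPM at 3 d, 12975 at 3 w, 937 at 16 w, 907 at 78 w and 24488 in the injured library. Between 3 w and 16 w its level was 13.8-fold lower (ratio 0.0722, 95% interval 0.0717 to 0.0728). In the same step Lox was 2.69-fold lower and Plod1 2.01-fold lower, and the other 8 members stayed within 2-fold, P4ha1 and P4ha2 at 1.82 and 1.61 times their juvenile level. The 7 synovial lining markers, all detected in the stroma of each library, summed to 207 CPM at 3 d and 2963 at 3 w. Their sum was 8234 CPM at 16 w, 12333 at 78 w and 3705 in the injured library. Outside the 3 d library most of the sum was Prg4, the gene of the joint lubricant lubricin. Prg4 was at 2821 CPM at 3 w, 7859 at 16 w, 11926 at 78 w and 3527 after injury. The markers did not move as a set. From 3 d to 3 w Col22a1 (8.19 and 0.622 CPM), Tspan15 (5.32 and 3.31) and Cd55 (73.1 and 48.7) were lower. Htra4, Clic5, Hbegf and Prg4 were higher in that step. At 3 d Prg4 was at 79.0 CPM and Cd55 at 73.1. With stromal cells that held 2 or more UMIs of endothelial, leukocyte, mural or erythroid markers left out, P4ha1 and P4ha2 were at 1.81 and 1.41 times their juvenile level at 16 w. This left 4017 of 7897 stromal cells at 3 w and 4088 of 7658 at 16 w. The limit was on UMIs as counted, without regard to the depth of a cell. That filter did not use the synovial lining markers, and the part of synovial lining cells or their RNA in these levels was not tested.

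**Figure D1:**
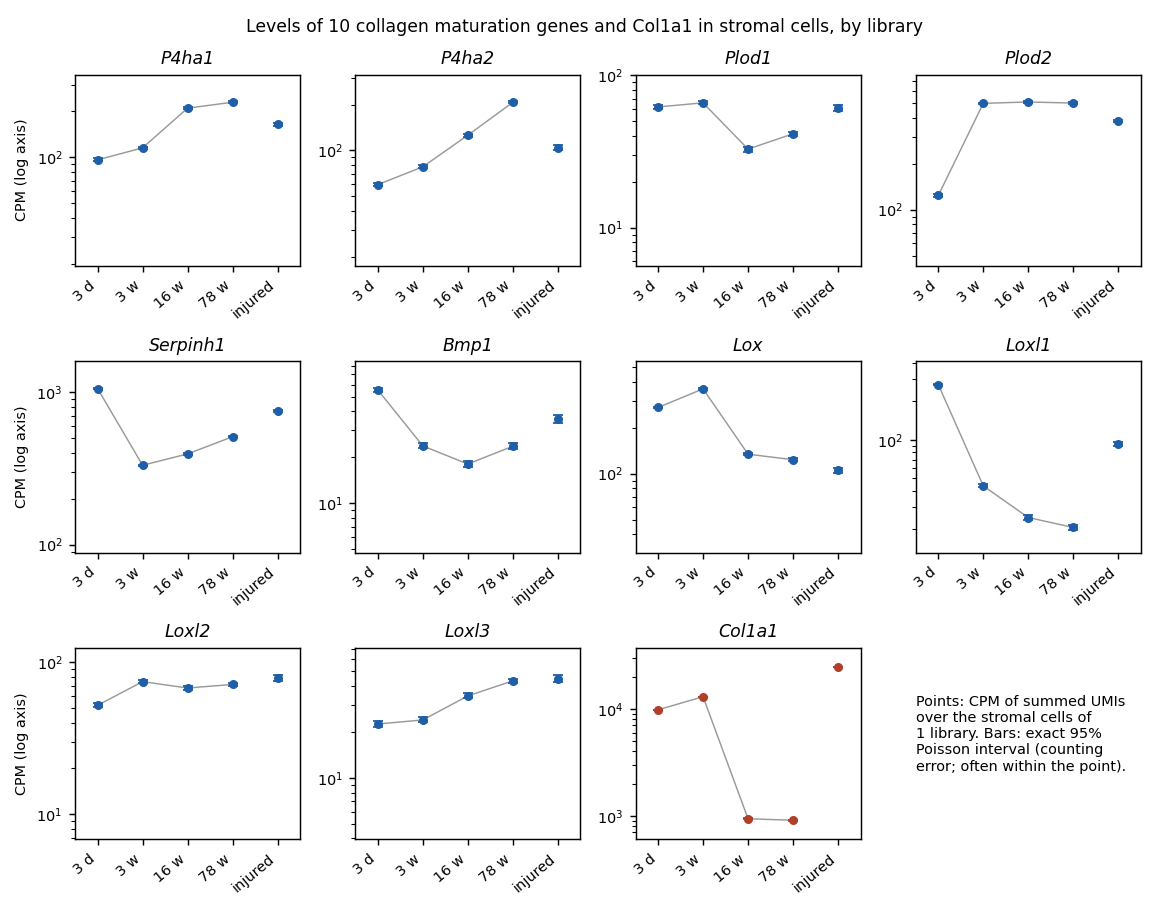
CPM of summed UMIs in stromal cells (log axis) for each of the 10 members and for Col1a1, by library, with exact 95% Poisson intervals and a grey line through the 4 stages. Col1a1 went from 12975 CPM at 3 w to 937 at 16 w, while P4ha1, P4ha2 and Loxl3 were highest among the stages at 78 w and Loxl1 was lowest there.

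P4ha1 and P4ha2 encode the catalytic subunits of the collagen prolyl 4-hydroxylases. P4ha1 was at 96.3 CPM at 3 d, 115 at 3 w, 210.4 at 16 w, 230.0 at 78 w and 164 in the injured library. The adult and aged libraries were thus the 2 highest, and the ratio of 16 w to 3 w was 1.82 (1.78 to 1.87), just under the 2-fold limit. P4ha2 was at 59.7, 78.1, 126, 207 and 104.5 CPM in the same order, so that each stage was above the one before it, and 78 w was at 1.65 times 16 w (1.61 to 1.69). In the injured library both genes lay between their levels at 3 w and at 16 w.

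Plod1 and Plod2 encode lysyl hydroxylases, of which Plod1 acts mainly on helical lysines and Plod2 on the telopeptide lysines that form the hydroxylysine-derived cross-links of stiff tissues. Plod2 was at 124 CPM at 3 d, 499 at 3 w, 509 at 16 w, 501 at 78 w and 382 in the injured library. It was 4.03-fold higher at 3 w than at 3 d (3.95 to 4.11), and the 3 later stages lay within 1.02-fold of their neighbours. Plod1 was at 62.1, 66.0, 32.8, 41.3 and 61.3 CPM, high at 3 d, at 3 w and after injury and low in the adult and aged libraries. The ratio of Plod1 between 16 w and 3 w, 0.497 (0.475 to 0.520), was at the limit. Its call was lost with TMM factors, with stromal clusters at equal weight, with all retained cells and with synovial lining cells added. Over the settings run the ratio lay between 0.468 and 0.525.

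Serpinh1 encodes HSP47, a chaperone specific to collagens. It was at 1057 CPM at 3 d, 332 at 3 w, 394 at 16 w, 511 at 78 w and 756 in the injured library, so that the lowest level was in the juvenile stroma, where Col1a1 was the highest of the 4 stages. The level at 3 w was 3.18-fold lower than at 3 d (ratio 0.314, 0.310 to 0.318), and the injured library was 2.28-fold above 3 w (2.24 to 2.32). Bmp1, the procollagen C-proteinase, was at 55.3, 23.8, 18.1, 23.7 and 35.6 CPM. The juvenile level was 2.33-fold below the newborn one (ratio 0.430, 0.410 to 0.450), a call that was lost when the 3 stromal clusters got equal weight (ratio 0.805). The newborn and injured libraries were the 2 highest for both genes.

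Lox, the founding lysyl oxidase, was at 272 CPM at 3 d, 360.5 at 3 w, 134 at 16 w, 123 at 78 w and 105 in the injured library. Its highest library was 3 w, and it was the 1 member whose lowest library was the injured one. The ratio of 16 w to 3 w was 0.372 (0.365 to 0.380), and that of the injured library to 3 w was 0.292 (0.281 to 0.303), 3.43-fold lower. Loxl1, which is needed for elastic fibres, was at 270.1, 43.6, 24.7, 20.6 and 93.0 CPM. Its level at 3 w was 6.20-fold lower than at 3 d (ratio 0.161, 0.157 to 0.166), the lowest ratio among the 10 members in any of the 5 comparisons, and the injured library was at 2.13 times 3 w (2.03 to 2.24) and 3.77 times 16 w (3.55 to 4.00).

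Loxl2 and Loxl3 belong to the branch of lysyl oxidases with scavenger receptor domains. Loxl2 was at 52.0, 74.3, 67.5, 71.3 and 78.7 CPM, and its highest and lowest libraries differed by less than 2-fold. Loxl3 was at 22.6, 24.0, 34.5, 43.3 and 44.7 CPM, the lowest in the newborn and juvenile libraries and the highest in the aged and injured ones. The injured library was at 1.86 times 3 w for Loxl3 (1.74 to 1.99), and no comparison took either gene past 2-fold.

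In the comparison of 3 w with 3 d, 3 of the 10 members were lower (Loxl1, Serpinh1 and Bmp1) and 1 was higher (Plod2). Of the 8324 genes with at least 10 CPM in the higher library, 12.7% were lower and 18% higher by 2-fold or more. In the comparison of 16 w with 3 w, 2 members were lower (Lox and Plod1) and 0 higher, where 3.87% of 7835 genes were lower and 3.46% higher. Between 78 w and 16 w 0 of the 10 members were past 2-fold in either direction, where 0.41% of 7558 genes were lower and 1.18% higher. The member median ratios in these 3 steps were 1.13, 0.964 and 1.17, beside medians over all genes tested of 1.09, 0.919 and 0.967. At a limit of 1.5-fold, the 3 lower and 1 higher at 3 w against 3 d stayed as they were, where 23.3% of the genes were lower and 30.6% higher. At that limit 3 members were lower at 16 w than at 3 w (Lox, Plod1 and Loxl1, the last at a ratio of 0.566) and 2 higher (P4ha1 and P4ha2), where 16.5% of the genes were lower and 9.74% higher. Between 78 w and 16 w 0 were lower and 1 was higher (P4ha2), where 2.65% of the genes were lower and 3.27% higher. No test set the members against the other genes.

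Against 3 w, the injured library had 1 member lower (Lox) and 2 higher (Loxl1 and Serpinh1), with 15% of 7759 genes lower and 5.26% higher. Against 16 w it had 0 lower and 1 higher (Loxl1), with 11.4% of 7723 genes lower and 6.27% higher. At a limit of 1.5-fold, 1 member was lower (Lox) and 3 higher (Loxl1, Serpinh1 and Loxl3) against 3 w, where 34.5% of the genes were lower and 11.2% higher, and 0 were lower and 4 higher (Loxl1, Bmp1, Serpinh1 and Plod1) against 16 w, where 29.4% were lower and 14.1% higher. The median gene of the injured library was itself at 0.793 of 3 w and 0.845 of 16 w, and TMM factors moved these medians by more than 0.1 on the log2 scale, from -0.33 to -0.15 and from -0.24 to -0.12. Relative to the median gene, Serpinh1 (2.87-fold), Loxl1 (2.69-fold) and Loxl3 (2.35-fold) were higher than at 3 w and Lox was lower (2.72-fold). Relative to the median gene at 16 w, Loxl1 (4.46-fold), Bmp1 (2.33-fold), Serpinh1 (2.27-fold) and Plod1 (2.21-fold) were higher. Lox and the hydroxylases P4ha1, P4ha2 and Plod2 lay at 0.886 to 0.982 on that scale. The share of all genes past 2-fold relative to the median gene was not computed, and the shares above do not apply to it. These values are therefore not read as a result about the members. In the stroma of the injured library the 8 leukocyte markers, all detected, summed to 124 CPM, against 14.1 to 25.3 in the other libraries. The 6 erythroid markers, of which 5 or 6 were detected, summed to 392 CPM in the injured stroma and 2856 at 3 d, against 2.89 to 31.0 in the other 3 libraries. The part of these cells or their RNA in the members' levels was not tested.

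**Figure D2:**
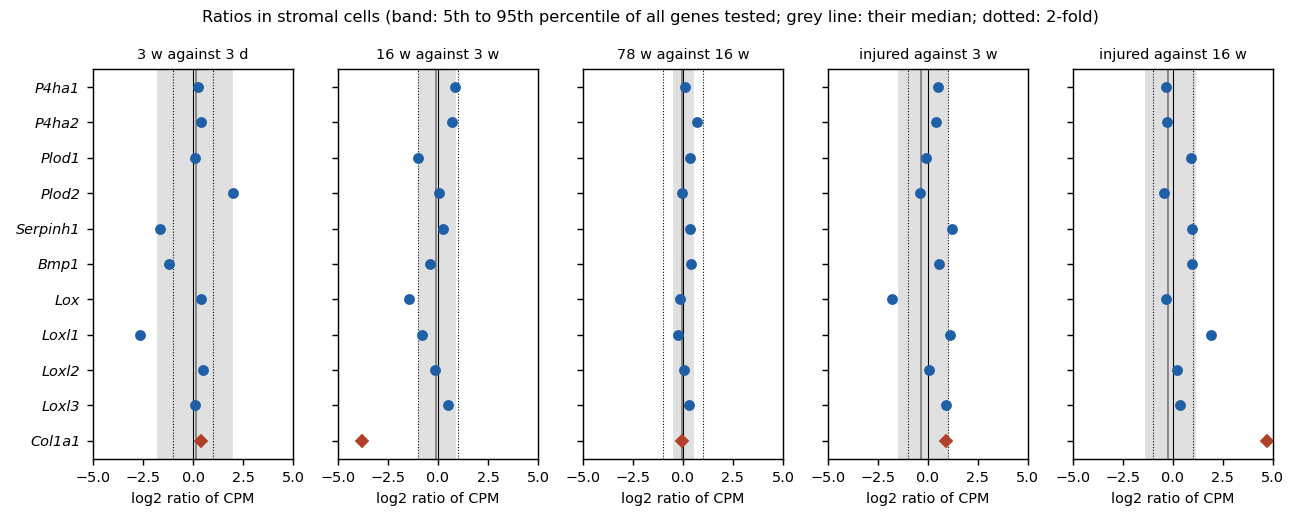
Log2 ratios of CPM in stromal cells for the members (circles) and Col1a1 (diamond) in each of the 5 comparisons, over the 5th to 95th percentile of all genes tested (band) with their median (grey line). In 16 w against 3 w Col1a1 lies at -3.79, far outside the band, and Lox at -1.43 and Plod1 at -1.01 lie below the lower edge of the band at -0.93.

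The members' UMIs were also counted per Col1a1 UMI. The 10 members together had 212 UMIs per 1000 Col1a1 UMIs at 3 d and 125 at 3 w, then 1655 at 16 w and 1955 at 78 w, and 74.5 in the injured library. From 3 w to 16 w all 10 members were higher per Col1a1 by 2-fold or more, from 5.15-fold for Lox to 25.2-fold for P4ha1. The Col1a1 level in the denominator was itself 13.8-fold lower, so the direction follows from the denominator, and the spread among the members comes from the members. Most genes would pass this limit, since the 5th percentile of all genes tested lay at a log2 ratio of CPM of -0.93 and Col1a1 at -3.79. P4ha1, P4ha2 and Loxl3 had the largest values (25.2, 22.3 and 19.9) and Lox, Plod1 and Loxl1 the smallest (5.15, 6.88 and 7.84). From 3 d to 3 w Plod2 was 3.04-fold higher per Col1a1, while Loxl1, Serpinh1 and Bmp1 were at 0.122, 0.237 and 0.324 of their newborn value. The injured library had the lowest value per Col1a1 for 7 of the 10 members. Among these 7, Loxl3 was at 1.83 per 1000 Col1a1 UMIs there and at 1.85 at 3 w, with overlapping intervals. The Col1a1 level of the injured library, 24488 CPM, was the highest of all libraries, so this count also carries the denominator. Col1a1 was at 1.89 times 3 w there and the median gene at 0.793, and the share of all genes lowest there was not computed.

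Stromal cells were then binned by their own Col1a1 UMIs, after each cell had been thinned at random to 2000 UMIs. At 16 w 37.1% of the cells had 0 Col1a1 UMIs and 53.7% had 1 to 4, whereas at 3 w these shares were 1.22% and 11.6%. Lox was lower at 16 w than at 3 w in each bin that both libraries filled, at 0.272 of the juvenile level in cells with 0 Col1a1 UMIs, 0.308 in cells with 1 to 4 and 0.282 in cells with 5 to 19. P4ha1 was higher in each of the 3 bins (1.93, 2.08 and 2.05), as were P4ha2 (2.02, 1.94 and 1.89), Loxl3 (1.83, 2.11 and 2.08) and Serpinh1 (1.68, 1.83 and 2.05). Plod2 lay at 1.30, 1.23 and 1.14. The bins did not equalise Col1a1, whose level in them was 748, 1836 and 6288 CPM at 3 w and 291, 934 and 2899 CPM at 16 w, so that juvenile cells held more Col1a1 in each bin. The bins of these values held 96 to 4081 cells.

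Within a library the members differed in how they went with Col1a1. Serpinh1 was higher in cells with 20 or more Col1a1 UMIs than in cells with 1 to 4 in each of the 4 libraries that filled both bins. The difference was 1.41-fold at 3 d, 1.74-fold at 3 w, 3.11-fold at 78 w and 2.44-fold in the injured library. Plod1 and P4ha1 were higher in the same 4, by 1.33- to 2.46-fold and by 1.04- to 1.52-fold. For P4ha1 in the injured library the counting intervals of these bins overlapped (147 to 185 and 166 to 178 CPM). Lox went the other way in all 4 libraries, at 0.549 to 0.838 of the level in low-Col1a1 cells. Loxl1 was lower in high-Col1a1 cells at 3 d and 3 w (0.700 and 0.718) and higher at 78 w and after injury (2.17 and 3.48). These are descriptions over cells of 1 library each, and the bins are ranges of a count, not cell types. The 78 w bin with 20 or more UMIs held 76 cells.

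**Figure D3:**
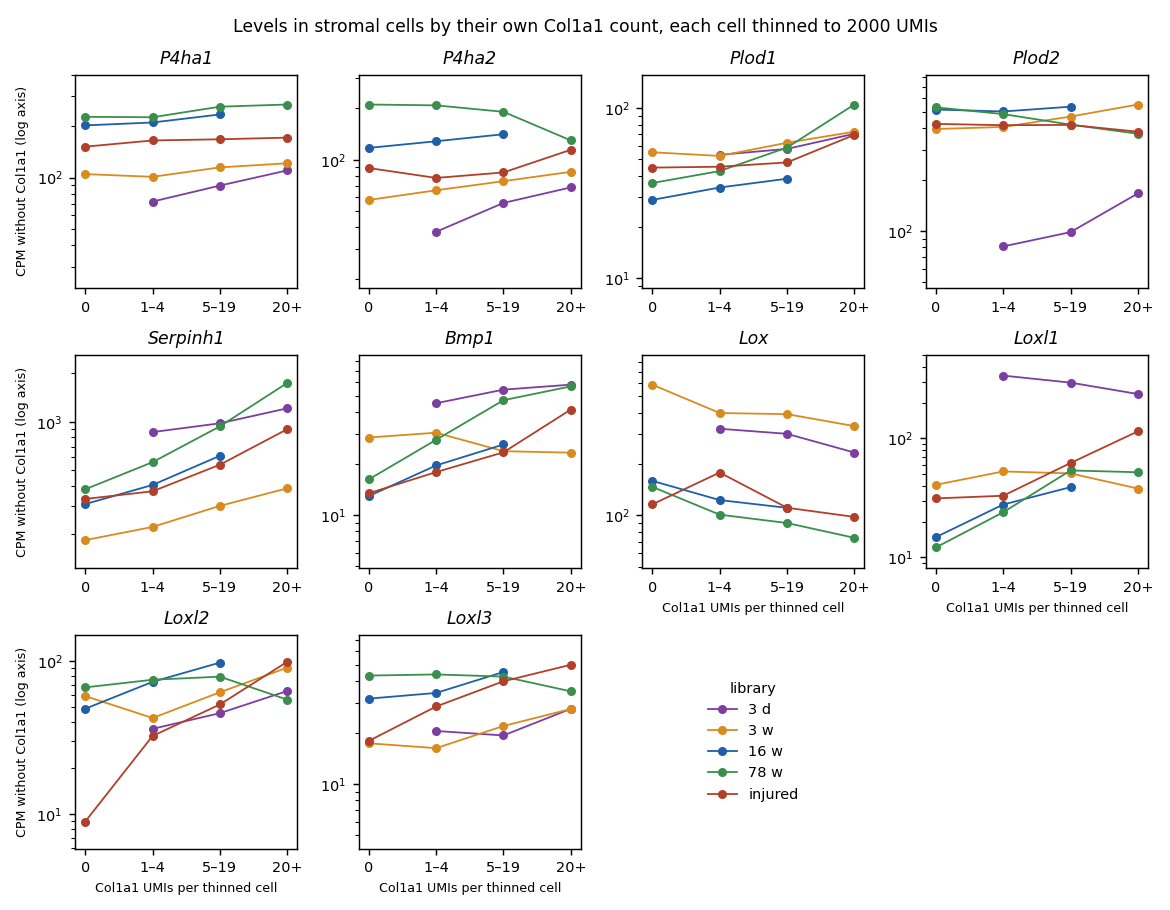
CPM (Col1a1 left out of the total, log axis) of each member in stromal cells grouped by their Col1a1 UMIs after thinning to 2000 UMIs per cell, 1 line per library. In the 4 libraries with both bins, Lox is lower and Serpinh1 higher at 20 or more Col1a1 UMIs than at 1 to 4, and the adult and aged lines for P4ha1 lie above the juvenile line in every bin they share.

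Shares of stromal cells with a UMI, after thinning to 1000 UMIs per cell, were read for the same members. Lox had a UMI in 18.8% of cells at 3 d (95% Clopper-Pearson interval 18.0 to 19.5), 22.3% at 3 w (21.4 to 23.2), 10.2% at 16 w (9.54 to 10.9), 9.41% at 78 w and 9.16% after injury. Plod2 had one in 11.1% at 3 d (10.5 to 11.8) and in 28.6% to 34.6% in the other libraries. P4ha1 was at 9.63% and 9.49% at 3 d and 3 w and at 17.2% and 18.9% at 16 w and 78 w. Unthinned, the 16 w, 3 w and injured shares for Lox were 44.6%, 71.3% and 25.8%, which also carry the depth of the libraries. In the erythroid cells of the 3 d library, which should lack these genes, the thinned shares were 0.333% for Lox, 0.667% for Plod2, 4.33% for Serpinh1 and 0 of 300 cells for P4ha1, which does not exclude a low share. The stromal shares above were higher than these. However, the 6 erythroid markers summed to 889001 CPM in these erythroid cells, against 2856 in the 3 d stroma. Few of the thinned UMIs were thus left for other genes, so these shares cannot serve as a floor for the stroma. Between 6 and 320 stromal cells per library were too shallow to enter.

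The stroma was made of 3 clusters, led by Ibsp, Lcn2, Chad and Cytl1 (cluster 1), by Coch, Spp1, Angptl7 and Kera (cluster 2) and by Pi16, Clec3b, C3 and Mfap5 (cluster 3). Chad and Cytl1 are cartilage genes, and Pi16 marks fibroblasts of loose connective tissue. At 3 d, cluster 1 held 18.7% of the stromal cells, cluster 2 44.2% and cluster 3 37.1%. From 3 w on, cluster 1 held 58.9% to 64.9%, cluster 2 23.9% to 31.6% and cluster 3 8.66% to 11.2%. A difference from 3 d over the whole stroma therefore sets different clusters side by side, whereas the later libraries had similar make-up.

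P4ha1, P4ha2, Plod2 and Loxl3 were highest in cluster 1 in all 5 libraries, and Loxl1, Serpinh1 and Bmp1 were highest in cluster 3 in all 5, by as little as 349 against 343 CPM in cluster 2 for Serpinh1 at 3 w. For Plod2 at 16 w the values were 602 CPM in cluster 1, 364 in cluster 2 and 211 in cluster 3. For Bmp1 at 78 w they were 7.02, 27.7 and 126 CPM, a 17.9-fold range, and for Loxl1 at 78 w 3.36, 33.1 and 110.3 CPM, a 32.8-fold range. The 3 d library had the narrowest range for Bmp1, 52.4 to 59.0 CPM. Col1a1 kept no such order, being highest in cluster 1 in 1 library, in cluster 2 in 3 and in cluster 3 in 1. The share of all genes that kept the same leading cluster in all 5 libraries was not computed. The fixed order is therefore not read as particular to the members.

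Lox changed its place among the clusters. These clusters rest on the integration of the libraries. Without it, a stromal cluster held 9876 of its 9881 cells from 3 d and another held 7771 of 7821 from 3 w. Whether a cluster holds the same kind of cell at both ages was not tested. At 3 d it was at 84.0 CPM in cluster 1, 181 in cluster 2 and 431 in cluster 3, and at 3 w at 430.3, 249 and 141 CPM. From 3 d to 3 w its level was thus 5.12-fold higher in cluster 1, 1.37-fold higher in cluster 2 and at 0.327 of the newborn level in cluster 3, so that the ratio of 1.33 over the whole stroma joins changes in opposite directions. From 3 w to 16 w Lox was lower in all 3 clusters, at 0.346, 0.497 and 0.311 of the juvenile level. Loxl1 and Serpinh1 were lower at 3 w than at 3 d within every cluster (0.159, 0.320 and 0.329 for Loxl1 and 0.363, 0.325 and 0.314 for Serpinh1), and Plod2 was higher in every cluster (3.30, 2.54 and 2.15). Bmp1 was at 0.269 in cluster 1, 0.559 in cluster 2 and 1.501 in cluster 3 of the newborn level. P4ha1 at 16 w was at 1.72, 2.16 and 1.96 times 3 w in the 3 clusters, and in the injured library Loxl1 was at 1.58, 2.11 and 2.05 times 3 w.

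**Figure D4:**
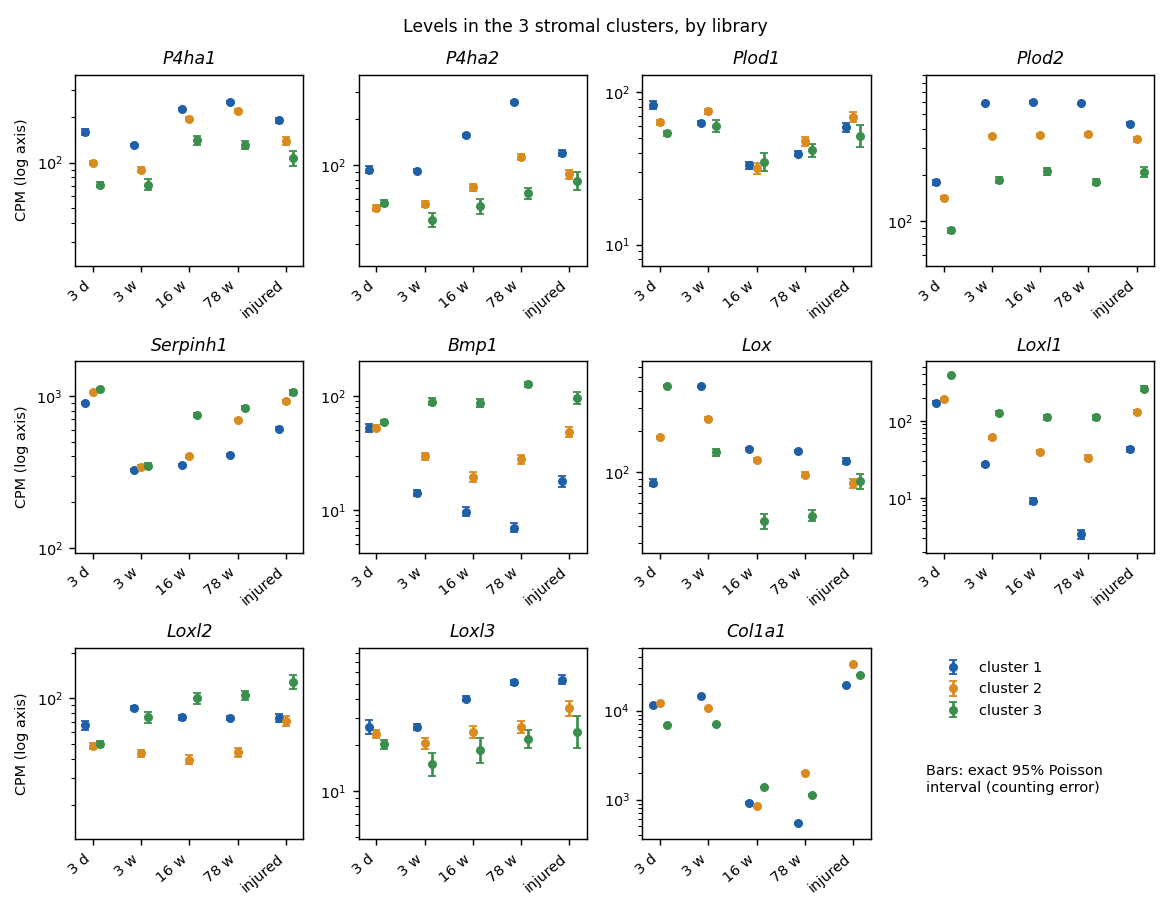
CPM (log axis) of each member and of Col1a1 in the 3 stromal clusters, by library, with exact 95% Poisson intervals. Cluster 3 (green) is above cluster 1 (blue) for Loxl1 and Bmp1 in every library, Plod2 has the opposite order, and the order of the clusters for Lox at 3 d is the reverse of that at 3 w.

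Outside the stroma the members separated by cell class. Over the 50 pairs of a member and a library, the highest of 5 classes (stromal, endothelial, leukocyte, mural and synovial lining cells) was stroma in 27, synovial lining in 13, mural in 6, endothelial in 4 and leukocyte in 0. Over the 49087 pairs of a library and any gene with at least 10 CPM in a class, these shares were 12%, 23.7%, 19.6%, 24.1% and 20.6% in the same order. Lox and Loxl3 were highest in the stroma in 5 of 5 libraries, and P4ha1, P4ha2 and Plod2 in 4 of 5, with the synovial lining of the 3 d library above the stroma in the remaining one. The counting interval of the highest class overlapped that of another class in 6 of the 27 pairs led by the stroma, 8 of the 13 led by the synovial lining, 4 of the 6 led by mural cells and 3 of the 4 led by endothelial cells, so that these ranks were not separated by counting error. In the 3 d library the synovial lining had 123 CPM of P4ha2 against 59.7 in the stroma.

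Loxl2 and Bmp1 were not led by the stroma in any library. Loxl2 was highest in mural cells, the smooth muscle cells and pericytes of vessels, at 3 d (188 CPM), 3 w (153) and after injury (139), and in the synovial lining at 16 w (161) and 78 w (168), beside 52.0 to 78.7 CPM in the stroma. After injury the interval of the mural cells overlapped that of the synovial lining (128 CPM). Bmp1 was highest in the synovial lining in all 5 libraries, at 38.0 to 68.0 CPM, with an interval that overlapped another class in 4 of them. Plod1 was highest in endothelial cells at 3 d, 16 w, 78 w and after injury (66.8 to 92.0 CPM) and in the synovial lining at 3 w (94.8 CPM), with overlap in 4 of the 5 libraries. Serpinh1 was highest in the stroma at 3 d and after injury, in mural cells at 3 w and 16 w (552 and 499 CPM) and in the synovial lining at 78 w (536 CPM), and at 3 w and 16 w the interval of the mural cells overlapped that of another class. Mural cells numbered 106 to 353 and synovial lining cells 84 to 543 per library.

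Free stromal RNA was gauged from Dcn, a stromal proteoglycan gene that endothelial cells should lack. It was in endothelial cells at 17.6% to 24.2% of its stromal CPM. In the same cells Lox was at 19.99% to 27.9% of its stromal level, Plod2 at 21.8% to 33.3% and Loxl3 at 15.1% to 32.5%, and the part of free RNA in these levels was not told apart. Plod1 was at 129% to 215% and Serpinh1 at 74.4% to 157%, above Dcn in every library. In mural cells Dcn was at 17.1% to 22.3% and Loxl2 at 90.4% to 361%. In synovial lining cells, with Dcn at 30.7% to 45.8%, Lox was at 6.89% to 33.5% and below Dcn in every library. Dcn therefore cannot serve as a gauge of free stromal RNA in this class.

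**Figure D5:**
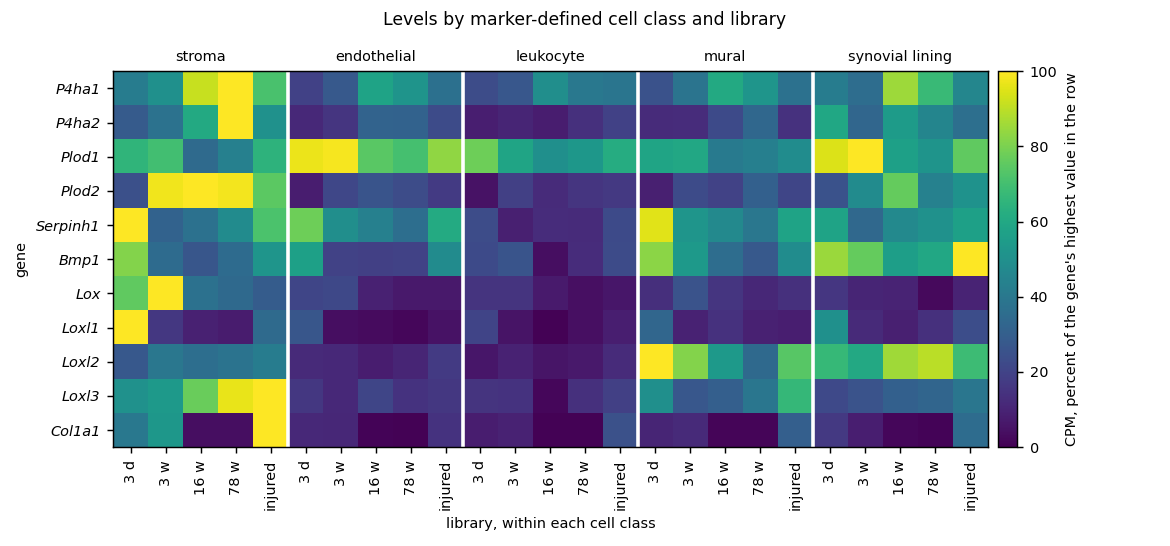
CPM of each member and of Col1a1 in 5 marker-defined cell classes and 5 libraries, coloured as percent of the gene's highest value in its row. Lox, Loxl3 and Col1a1 are brightest in the stroma, Loxl2 in mural and synovial lining cells, and Plod1 in endothelial and synovial lining cells.

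The other genes of collagen maturation gave a background to the members. Of 26 such genes 21 reached 10 CPM in the 3 d or 3 w stroma. At 3 w 6 of these were lower and 5 higher than at 3 d, with a median ratio of 0.700. Of all genes tested, 12.7% were lower and 18% higher. P4ha3 was 3.68-fold lower, P3h1, a prolyl 3-hydroxylase, 3.16-fold, P4hb, the shared subunit of the prolyl 4-hydroxylases, 2.85-fold, Colgalt1, which adds galactose to hydroxylysine, 2.54-fold and Ppib, a proline isomerase of the same complex as P3h1, 2.41-fold. Pcolce2, an enhancer of Bmp1, was 9.90-fold higher (13.5 and 133 CPM) and Colgalt2 5.20-fold higher, Tmem38b, an endoplasmic reticulum ion channel, 2.92-fold, Adamts2, the N-propeptidase, 2.79-fold and Sparc, an extracellular collagen-binding protein, 2.35-fold. At 16 w against 3 w 2 of 21 were lower and 1 higher, where 3.87% of all genes tested were lower and 3.46% higher. Sparc was 9.27-fold lower (26710 and 2882 CPM), Adamts2 was 2.35-fold lower and Colgalt2 2.04-fold higher.

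Genes of the substrates were read in the same way. The 9 fibrillar collagen chains included Col1a1, whose fall after 3 w was known beforehand. Of these 9 chains 7 were lower and 1 higher at 16 w than at 3 w, with a median ratio of 0.282 against 0.964 for the members and 0.919 for all genes. Of all genes tested, 3.87% were lower and 3.46% higher in this step. Col1a2 was 8.61-fold lower and Col3a1 8.44-fold lower, and Col2a1, the cartilage collagen, was 2.33-fold higher. In the injured library 9 of 9 chains were higher than at 16 w, with a median ratio of 3.099, where the members had 1.23. Of all genes tested, 6.27% were higher. Of 10 matrix partners of lysyl oxidases 7 were lower at 3 w than at 3 d, as was Loxl1, among them Eln (elastin) 21.1-fold, Fbn2 (fibrillin 2) 65.2-fold, Postn (periostin) 44.6-fold, Mfap4 12.5-fold and Fbln5, which binds Loxl1 in elastic fibres, 6.92-fold. Fmod, a proteoglycan known to bind Lox and collagen, was 13.6-fold higher (289.6 and 3949.9 CPM) and Fn1 2.07-fold. In that comparison 12.7% of all genes tested were lower and 18% higher. In the injured library Postn was at 3.20 times and Eln at 0.907 times the 3 w level, and against 16 w both were higher, 112-fold and 7.98-fold.

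Genes of the hypoxia response were read beside the 4 members named above as textbook targets. At 16 w against 3 w P4ha1 and P4ha2 were at ratios of 1.82 and 1.61, Plod2 at 1.02 and Lox at 0.372. Of 11 hypoxia genes 10 reached 10 CPM at 3 w or 16 w, and 3 were higher at 16 w by 2-fold or more, Ankrd37 (3.21-fold), Adm (2.93-fold) and Vegfa (2.82-fold), with 0 lower and a median ratio of 1.35. Of all genes tested, 3.46% were higher and 3.87% lower in this step. At 3 w against 3 d 4 of 8 hypoxia genes were higher, Ndrg1 (5.38-fold), Bnip3 (4.28-fold), Slc2a1 (2.81-fold) and Higd1a (2.24-fold), where 18% of all genes tested were higher. In the injured library 3 of 10 were lower than at 16 w, Ndrg1 (2.93-fold), Slc2a1 (2.42-fold) and Adm (2.08-fold), and Higd1a was 2.16-fold higher. Of all genes tested, 11.4% were lower and 6.27% higher there. The part of hypoxia in the levels of the members was not tested. Early response genes, which tissue digestion can induce, moved between the same libraries, with 4 of 8 higher at 16 w than at 3 w (Hspa1b 4.96-fold, Hspa1a 3.01-fold, Egr1 2.65-fold and Fosb 2.12-fold) and 0 lower, and their part in the levels of the members was not tested. Of 7 genes of the TGF-beta response, 3 were higher at 16 w, Ltbp2 (2.87-fold), Tagln (2.34-fold) and Ctgf (2.29-fold), and 0 lower. For these and the early response genes the shares over all genes tested were again 3.46% higher and 3.87% lower.

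Over 28 points of a cell class in a library, the 5 genes whose log2 CPM went most closely with the mean of the 10 members were P3h3 (Pearson r of 0.954), Sec31a (0.935), Maged1 (0.930), Tspan3 (0.927) and Prrx1 (0.925), out of 11603 genes. Col1a1 had an r of 0.469 with the same mean. The points share libraries and free RNA, and the values are a description. They include erythroid cells of the 3 d and injured libraries, whose erythroid markers summed to 889001 and 591606 CPM. Little was left there for other genes, which lowers these together, and the part of these points in r was not tested.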

How the data were processed

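The authors dissociated TMJ discs enzymatically (Pronase, Collagenase P), prepared 3′ libraries on the 10x Genomics platform and deposited raw UMI counts per gene and barcode, without normalization, in 1 matrix per condition. The submitters' processing notes give mm10 and Cell Ranger 3.1, while the file headers give 4.0.0. A barcode was kept if it had over 200 UMIs, of which no more than 30% were mitochondrial. Cells were clustered in Seurat 5.3.0 (R 4.3.3) by anchor integration of 2000 variable features per library, 30 dimensions and a resolution of 0.2, with the members and the gene lists left out of the features. No doublet caller was run, and leaving out stromal cells with 2 or more UMIs of other classes' markers (endothelial, leukocyte, mural and erythroid, not synovial lining) was an alternative.

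A cluster took the class with the highest mean of its markers, each relative to the marker's highest cluster, if at least 3 markers reached 20% of that cluster, the score led by 1.5 times and, outside the stroma, at least 2 markers were among the 10 leading genes. The markers were listed before clustering, and this scoring rule was chosen with the clusters in view. Of the 11 clusters 2 stayed unnamed. Cell names are rebuilt here and may differ from the study's.

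CPM were computed from the deposited counts summed per class and library, with exact 95% Poisson intervals, exact intervals for ratios of counts and Clopper-Pearson intervals for shares (scipy 1.17.1). They cover counting error only. The interval step was tested on simulated data. Background shares cover genes of at least 10 CPM in the higher library. Named genes were all members and Col1a1, at most 5 genes per direction of each list with the largest ratios, and the 5 genes most like the members, by Pearson r of log2(CPM + 5) over points of at least 50 cells. The members and lists were chosen with earlier results of these data known. Alternatives covered the cell filter, TMM (edgeR 4.0.16), the CPM denominator, weights of cells and clusters, integration, resolution, cell typing, doublets, cycling cells, the fold and the thinning.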

Additional observations from a re-analysis of the deposited data

Results flagged for a closer look

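Loxl1 went in opposite directions in 2 cell classes between the injured and the 16 w library. In stromal cells it was at 93.0 CPM in the injured library and 24.7 at 16 w, a ratio of 3.77. In mural cells it was at 23.1 CPM in the injured library, from 7 UMIs, and at 38.7 CPM at 16 w, from 83 UMIs, a ratio of 0.597 (95% counting interval 0.233 to 1.29, which includes 1). The difference between the classes was not tested, since each condition had 1 library.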

How the results depend on the processing

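The counts of members past 2-fold kept within 1.5 times of their value in 125 of 144 combinations of a result and an alternative setting, and 19 moved. Single members were also followed, over 550 combinations of a member, a comparison and a setting. Of these, 215 were marked as moved and 335 as the same. For 16 w against 3 w, the 2 members lower became 1 with TMM factors, with stromal clusters at equal weight, with all retained cells and with synovial lining cells added, and 4 without integration, while at 1.5-fold 2 were higher instead of 0. For 3 w against 3 d, leaving out cells with markers of other classes gave 2 higher instead of 1, and left 1248 of 10270 stromal cells at 3 d. For 78 w against 16 w, 1 was lower without integration and 1 higher at 1.5-fold, instead of 0. For injured against 3 w, the 2 higher became 1 with the mean CPM per cell and with cells with markers of other classes left out. For injured against 16 w, the 1 higher became 4 with TMM factors, 2 with the denominator without mitochondrial and the 20 highest genes, 3 without integration and 4 at 1.5-fold. The pairs highest in mural cells were 6, and became 3 with the mean CPM per cell and 10 with cells with markers of other classes left out. In cells with 1 to 4 Col1a1 UMIs, thinning to 1000 UMIs gave 1 higher instead of 2. Of the members' shares of cells with a UMI, 3 were lower at 16 w than at 3 w after thinning and 7 without thinning. No call changed sign. Lox at 16 w against 3 w lay between 0.366 and 0.396 and Serpinh1 at 3 w against 3 d between 0.313 and 0.352 under all settings run, while Loxl1 at 78 w against 16 w lay between 0.321 (without integration) and 0.937. The causes were not tested. No paired analysis was possible because each group is 1 library, and for the same reason no replicate could be left out.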

Other observations

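The ratio of Col1a1 to Col1a2 UMIs in stromal cells, genes of the 2 chains of collagen I, was 2.03 in the injured library, beside 0.965 and 0.799 in the newborn and juvenile libraries and 0.497 and 0.517 in the adult and aged ones. The injured library was the 1 library with more Col1a1 than Col1a2 UMIs.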
